A study of Musca domestica with 6 samples.

Results

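Fructose-1,6-bisphosphatase 1 (LOC101901027) is 1 gene of the 14227 in the deposited count table of the housefly, Musca domestica, and the only gene there that is described as a fructose-1,6-bisphosphatase or annotated with that enzyme's domain. It was picked by name from earlier results of this same comparison, in which it stood among the genes that were lower after the silencing of MdCht9. Its level and its log2 fold change are therefore given as a description, with no test. Its deposited description reads isoform X1, and the RefSeq gene table lists 2 transcripts and 2 proteins for it.

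The 6 libraries were made from whole larvae of the 2nd instar. In 3 of them (dsMdCht9) the larvae had received double-stranded RNA that targets the chitinase MdCht9, and in 3 (dsGFP) double-stranded RNA against GFP, a jellyfish gene with no counterpart in the fly, and all were sampled 24 h after the injection. Every larva was thus injected with double-stranded RNA, and no untreated larvae were used. Whether the replicates were separate pools of larvae is not in the labels, and the p-values below therefore speak only of the spread among these samples, part of which may be technical. MdCht9 is not named in the annotation, and the silencing itself was not checked here.

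Fructose-1,6-bisphosphatase removes a phosphate from fructose 1,6-bisphosphate to give fructose 6-phosphate. This is an irreversible step of gluconeogenesis, the making of sugar from smaller molecules, and it runs against the step of phosphofructokinase in glycolysis. In mammals the liver and the muscle enzyme are the products of separate genes, and the small molecule fructose 2,6-bisphosphate inhibits the phosphatase while it activates phosphofructokinase. In insects, sugar phosphates are made into trehalose, the main sugar of the blood, and into glycogen, mostly in the fat body, and fructose 6-phosphate is also the starting point of the amino sugars from which chitin is built.

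The gene was at lower levels in all dsMdCht9 libraries. It lies on scaffold NW_004765340.1, positions 97519 to 102921, on the minus strand of an assembly that the deposited table does not name, and spans 5403 bases there. It was counted with 1060, 942 and 973 reads in dsMdCht9 replicates 1, 2 and 3, and with 2122, 1726 and 2149 reads in dsGFP replicates 1, 2 and 3. Scaled to a common library size (CPM, after TMM scaling of the libraries), it stood at 66.4, 73.4 and 71.7 CPM in the dsMdCht9 libraries and at 153, 118 and 136 CPM in the dsGFP libraries. The groups did not overlap, and the lowest dsGFP library was 1.60 times the highest dsMdCht9 library. Of all 10644 genes tested, 3.38% likewise had every dsMdCht9 library below every dsGFP library. Because the gene was chosen from this contrast, nothing is read from that share.

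**Figure D1:**
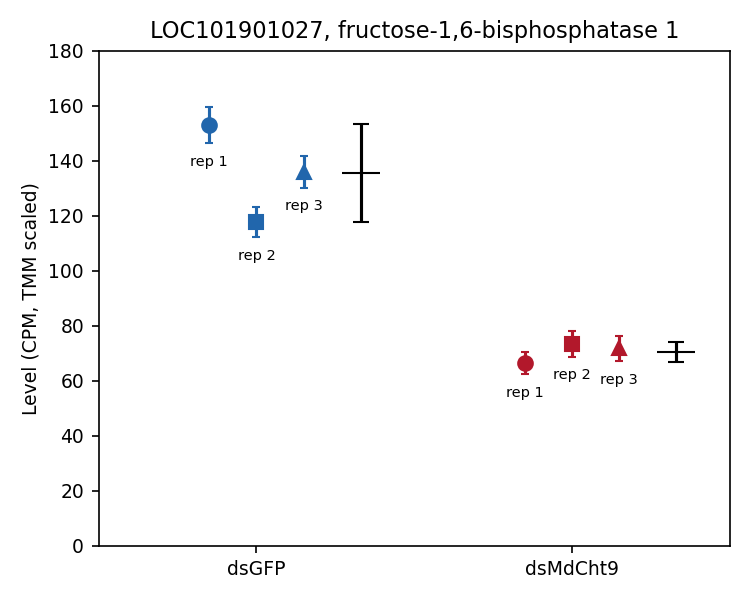
Level of fructose-1,6-bisphosphatase 1 (LOC101901027) in each library, in CPM after TMM scaling, with exact 95% Poisson intervals of the reads (counting error only); black lines show the mean and SD of each group of 3. The dsMdCht9 libraries sit between 66.4 and 73.4 CPM, and all dsGFP libraries sit at 118 CPM or above.

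The mean level was 70.5 CPM ± 3.68 (SD, n = 3) in dsMdCht9 and 136 CPM ± 17.7 (SD, n = 3) in dsGFP, so that the dsMdCht9 mean was 52.0% of the dsGFP mean. The fitted log2 fold change (dsMdCht9 minus dsGFP, here and below) was -0.94 ± 0.16 (SE), which is 1.92-fold lower in terms of the group means. In the authors' deposited table the log2 fold change was -0.95 and the fold change 0.518. The dsGFP libraries differed more among themselves, with a coefficient of variation of 13.0%, than the dsMdCht9 libraries, with 5.22%.

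Counting error was smaller than the spread between libraries in dsGFP, and less clearly so in dsMdCht9. On its own it gives a coefficient of variation of 3.07%, 3.26% and 3.21% in dsMdCht9 replicates 1, 2 and 3 and of 2.17%, 2.41% and 2.16% in dsGFP replicates 1, 2 and 3. The exact 95% Poisson intervals, which cover counting error only, ran from 62.4 to 78.2 CPM over the dsMdCht9 libraries, where all of them met. Over the dsGFP libraries they ran from 112 to 159.6 CPM, where replicate 2 (112 to 123 CPM) did not meet replicate 3 (130 to 142 CPM), nor replicate 3 meet replicate 1 (147 to 159.6 CPM). Within groups the gene varied by an SD of 0.14 on the log2 scale, against a median of 0.25 over the 6421 genes of at least 10 CPM, and 19.1% of those genes varied less.

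Among the 10644 tested genes, 197 had a lower log2 fold change than fructose-1,6-bisphosphatase 1, and among those of at least 10 CPM, 80 had. The median log2 fold change of all tested genes was -0.0033. In whole bodies, fewer cells that express the gene and less of its RNA per cell cannot be told apart.

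The estimate moved little with the processing. It was -0.95 with DESeq2, -0.94 with limma-voom, -0.95 with median-of-ratios size factors and -0.96 without a filter on low counts. Scaling by library size alone gave -0.82, under which the median of all tested genes moved up by the same step, to 0.12, and 32.3% instead of 50.5% of them lay below 0. Leaving out 1 library at a time gave -1.04 (without dsGFP replicate 2) to -0.85 (without dsGFP replicate 1).

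**Figure D2:**
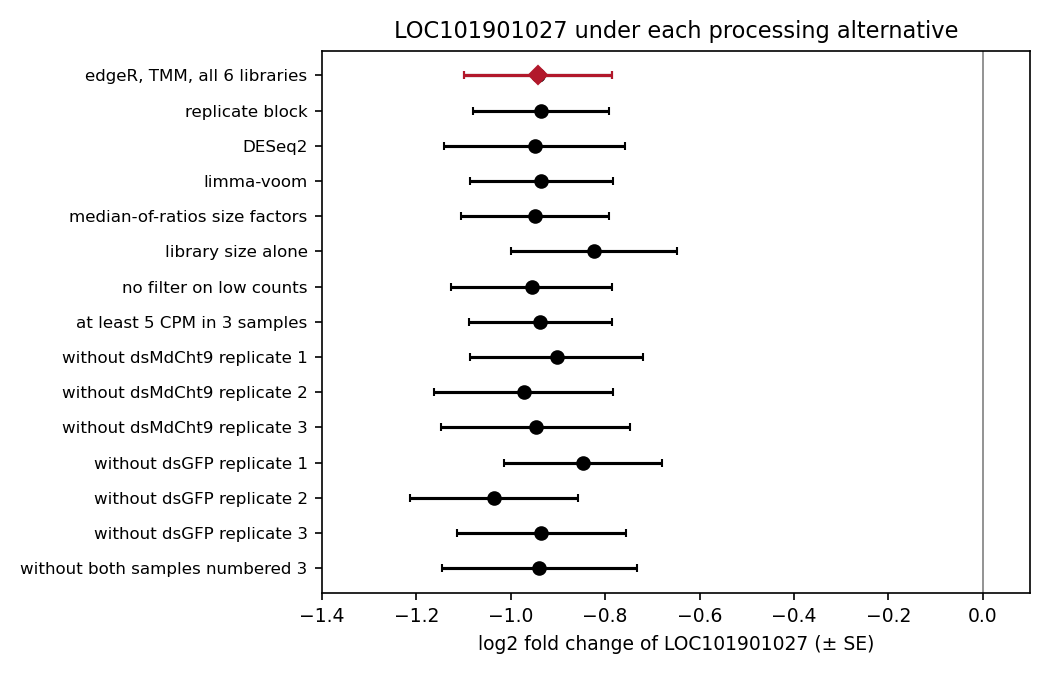
Log2 fold change of fructose-1,6-bisphosphatase 1 (dsMdCht9 minus dsGFP) with its SE under each way of processing, with the reported estimate as a red diamond. The estimates lie between -1.04 and -0.82, all left of the line at 0.

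Total counts ran from 12876941 to 15439421 reads per library. Both samples numbered 3 stood apart from the other libraries on the first principal component, which held 49.3% of the variance, at 48.2 and 40.2 against -33.5 to -3.04. Fructose-1,6-bisphosphatase 1 did not follow that split. Its 2 libraries numbered 3 (71.7 and 136 CPM) lay within the range of the other libraries of their groups, and its log2 fold change without both of them was -0.94. Across all genes, edgeR's quasi-likelihood test called 0 of 10644 (0.0%) at an adjusted p under 0.05, with 381 (3.58%) at an unadjusted p under 0.05 (888 with the replicate number as a block), and limma-voom called 0. DESeq2 called 13 of 14208 (0.0915%), with 5 (0.0352%) lower. Of 110 other genes of sugar metabolism that could be tested (of 131 found by their descriptions), edgeR, limma-voom and DESeq2 each called 0.

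The enzymes that serve gluconeogenesis and not glycolysis had log2 fold changes between -0.14 and 0.20 besides fructose-1,6-bisphosphatase 1, where they could be tested. Phosphoenolpyruvate carboxykinase makes phosphoenolpyruvate from oxaloacetate at the entry of the pathway, and 2 genes carry that description. LOC101888799 stood at 2486, 2055 and 1788 CPM in dsMdCht9 replicates 1, 2 and 3 and at 2452, 1516 and 1537 CPM in dsGFP replicates 1, 2 and 3. Its groups overlapped, and its log2 fold change was 0.20 ± 0.25 (SE). LOC101890254 stood at 214, 290 and 439 CPM in dsMdCht9 and at 326, 267 and 447 CPM in dsGFP, and the log2 fold change was -0.14 ± 0.31 (SE). In both groups its library numbered 3 was the highest, which was not so for the other copy.

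Pyruvate carboxylase (LOC101888004), the mitochondrial enzyme that makes oxaloacetate from pyruvate, stood at 474, 718 and 535 CPM in dsMdCht9 and at 659, 542 and 467 CPM in dsGFP, and the log2 fold change was 0.05 ± 0.23 (SE). The groups overlapped, and the highest of all 6 values was that of a dsMdCht9 library. Glucose-6-phosphatase 2 (LOC101889030), of a family that releases free glucose at the end of the pathway, was at 0 CPM in 4 of the 6 libraries and at 0.156 and 0.190 CPM in the other two, and was not tested. Of the 3 gluconeogenesis genes tested besides fructose-1,6-bisphosphatase 1, 1 was lower and 2 were higher, 0 were called by edgeR, and their median log2 fold change was 0.051. With 1 library left out that median lay between -0.086 (without dsMdCht9 replicate 2) and 0.19 (without dsGFP replicate 1).

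The other genes that act directly on fructose 1,6-bisphosphate or on its control had overlapping groups, as most genes did. Of all tested genes, 8.21% had groups that did not overlap. Phosphofructokinase (LOC101891392), which works against fructose-1,6-bisphosphatase, stood at 326, 548 and 371 CPM in dsMdCht9 replicates 1, 2 and 3 and at 503, 521 and 331 CPM in dsGFP replicates 1, 2 and 3. Its groups overlapped and its log2 fold change was -0.12 ± 0.27 (SE). The 1 gene for the enzyme with 6-phosphofructo-2-kinase and fructose-2,6-bisphosphatase activities (LOC101893622, named by its UniProt match), which makes and breaks fructose 2,6-bisphosphate, stood at 110, 323 and 169 CPM in dsMdCht9 and at 173, 234 and 162 CPM in dsGFP. Its log2 fold change was 0.08 ± 0.39 (SE), and it ranged from -0.44 (without dsMdCht9 replicate 2) to 0.37 (without dsMdCht9 replicate 1) when 1 library was left out. Both samples numbered 2 were the highest of their group for this gene.

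The reads of fructose-1,6-bisphosphatase 1 can also be set against those of these enzymes in the same library. Because the gene was chosen as lower in this contrast, its ratio to genes that differed little is lower by that choice, and the ratios are only a description. They compare libraries and not genes, since transcript lengths were not used. For each 100 reads of phosphofructokinase there were 20.4, 13.4 and 19.3 reads of fructose-1,6-bisphosphatase 1 in dsMdCht9 and 30.4, 22.6 and 41.1 in dsGFP. The groups did not overlap, at means of 17.7 ± 3.76 and 31.4 ± 9.30 (SD, n = 3 each). For each 100 reads of pyruvate carboxylase there were 14.0, 10.2 and 13.4 in dsMdCht9 and 23.2, 21.7 and 29.1 in dsGFP, again without overlap, at means of 12.5 ± 2.03 and 24.7 ± 3.89. For each 100 reads of the phosphoenolpyruvate carboxykinase LOC101888799 there were 2.67, 3.57 and 4.01 in dsMdCht9 and 6.24, 7.76 and 8.85 in dsGFP. That ratio too kept the groups apart.

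For each 100 reads of glucose-6-phosphate isomerase (LOC101891378) there were 14.2, 9.80 and 14.1 in dsMdCht9 and 20.0, 16.9 and 24.9 in dsGFP, without overlap. The ratio did overlap between groups for 4 of the 8 genes compared. Against the second carboxykinase, LOC101890254, the values were 31.1, 25.3 and 16.3 in dsMdCht9 and 47.0, 44.1 and 30.4 in dsGFP. Against the fructose 2,6-bisphosphate enzyme they were 60.2, 22.7 and 42.5 in dsMdCht9 and 88.4, 50.2 and 83.8 in dsGFP. These overlaps were narrow for the carboxykinase and wider for the fructose 2,6-bisphosphate enzyme. Against the aldolase LOC101887606 they were 22.9, 30.3 and 33.4 in dsMdCht9 and 47.3, 30.9 and 47.9 in dsGFP. Against the more variable aldolase, LOC101896342, they were 49.5, 13.2 and 31.8 in dsMdCht9 and 37.9, 24.0 and 49.4 in dsGFP. In each of the 4 the dsMdCht9 mean was still the lower.

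**Figure D3:**
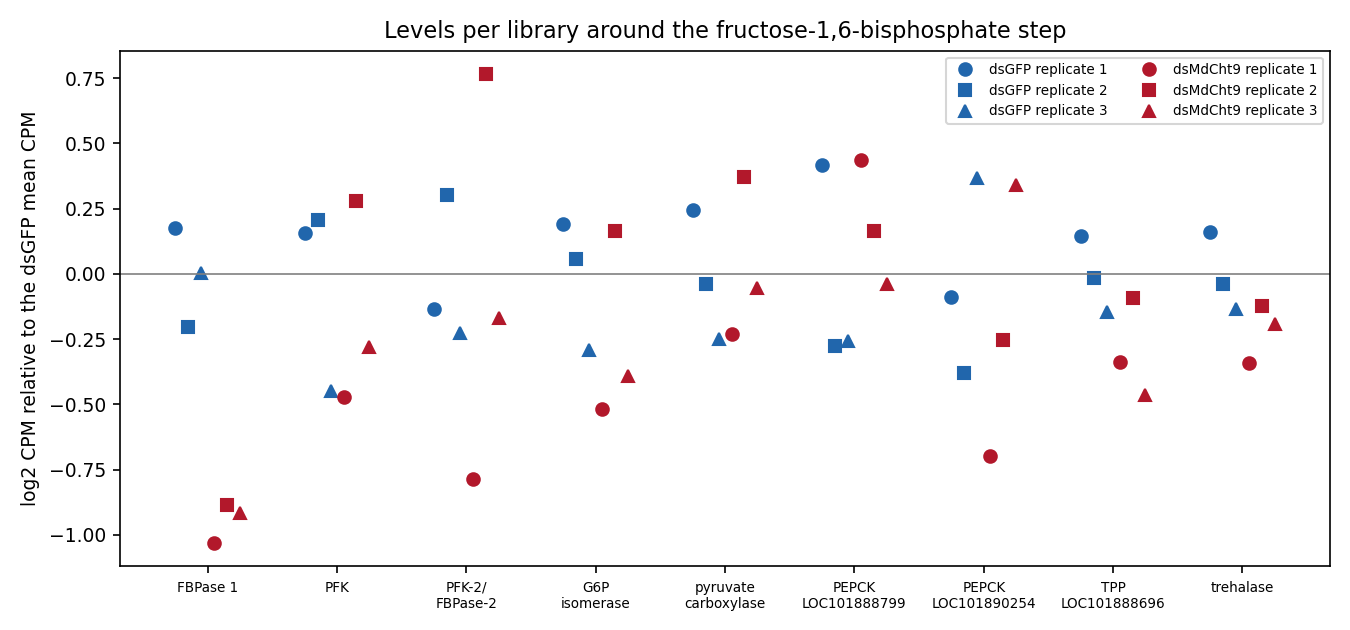
Levels of fructose-1,6-bisphosphatase 1 (FBPase 1) and of 8 genes of neighbouring steps in each library, as log2 CPM relative to the mean CPM of the dsGFP libraries (0 on the axis); colour marks the group and shape the replicate number (PFK, phosphofructokinase; G6P, glucose 6-phosphate; PEPCK, phosphoenolpyruvate carboxykinase; TPP, trehalose-phosphate phosphatase). The dsMdCht9 points of FBPase 1 lie below all its dsGFP points, and for the other 8 genes the colours overlap. Groups did not overlap for 8.21% of all tested genes.

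Glycolysis genes had mostly lower means in dsMdCht9, by smaller amounts. Of 17 genes found by description 15 were tested, of which 13 were lower and 2 higher. edgeR called 0 of them, and their median log2 fold change was -0.26, against -0.0033 for all genes, of which 50.5% were lower. Under scaling by library size alone 13 were still lower, at a median of -0.15. With 1 library left out the median was -0.46 without dsMdCht9 replicate 2 and -0.12 without dsMdCht9 replicate 1. Every glycolysis gene had a log2 fold change above that of fructose-1,6-bisphosphatase 1, and for each of the 15 the groups overlapped. Of all tested genes, 1.85% had a lower log2 fold change than it, and 8.21% had groups that did not overlap. Neither statement is therefore read as a result about glycolysis. The muscle markers described below had a similar median, -0.28, and the part of muscle in the glycolysis values was not tested.

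The 2 genes for fructose-bisphosphate aldolase, which splits fructose 1,6-bisphosphate into triose phosphates and joins them again in gluconeogenesis, were among the lower ones. LOC101887606 stood at 290, 242 and 215 CPM in dsMdCht9 replicates 1, 2 and 3 and at 323, 381 and 283 CPM in dsGFP replicates 1, 2 and 3, and dsMdCht9 replicate 1 lay above dsGFP replicate 3. Its log2 fold change was -0.40 ± 0.19 (SE). LOC101896342 had -0.35 ± 0.52 (SE), with libraries from 134 to 555 CPM in dsMdCht9 alone. In gluconeogenesis, fructose-1,6-bisphosphatase 1 uses the product of this step.

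The other reversible steps had lower means too. The log2 fold change was -0.22 ± 0.24 (SE) for glucose-6-phosphate isomerase (LOC101891378), which takes the product of fructose-1,6-bisphosphatase on to glucose 6-phosphate. It was -0.38 ± 0.26 for triosephosphate isomerase (LOC101887841), -0.24 ± 0.25 for glyceraldehyde-3-phosphate dehydrogenase 2 (LOC101887935), -0.22 ± 0.18 for phosphoglycerate kinase (LOC101899728), -0.48 ± 0.25 for phosphoglycerate mutase 2 (LOC101891322) and -0.47 ± 0.34 for enolase (LOC101894089). These enzymes work in both directions. Of the steps used in glycolysis only, pyruvate kinase (LOC101892944) had -0.28 ± 0.30 and the hexokinase of highest CPM (LOC105261744), which phosphorylates glucose, had 0.24 ± 0.29. Another hexokinase gene of similar level (LOC101891381) had -0.26 ± 0.19, so that genes for this step lay on both sides. L-lactate dehydrogenase (LOC101899700), which turns pyruvate and lactate into each other, had the lowest value of the list, -0.57 ± 0.36.

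The glycolysis genes are also given library by library, beside fructose-1,6-bisphosphatase 1. They were averaged over the list on the log2 scale, with each gene centred on its mean in the dsGFP libraries. They stood at -0.50, 0.11 and -0.44 in dsMdCht9 replicates 1, 2 and 3 and at 0.12, 0.22 and -0.34 in dsGFP replicates 1, 2 and 3. Within each replicate number the dsMdCht9 library was the lower. Across numbers, dsMdCht9 replicate 2 lay within the range of the control libraries, and dsGFP replicate 3 was low. The muscle markers, averaged in the same way, stood at -0.46, 0.13 and -0.67 in dsMdCht9 and 0.19, 0.20 and -0.39 in dsGFP. For fructose-1,6-bisphosphatase 1, dsMdCht9 replicate 2 (73.4 CPM) was the highest of its group but still under every control, and dsGFP replicate 3 (136 CPM) was in the middle of its group. Because the gene was chosen as lower in this contrast, its place under every control is only a description. No difference from the glycolysis list is read from it.

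**Figure D4:**
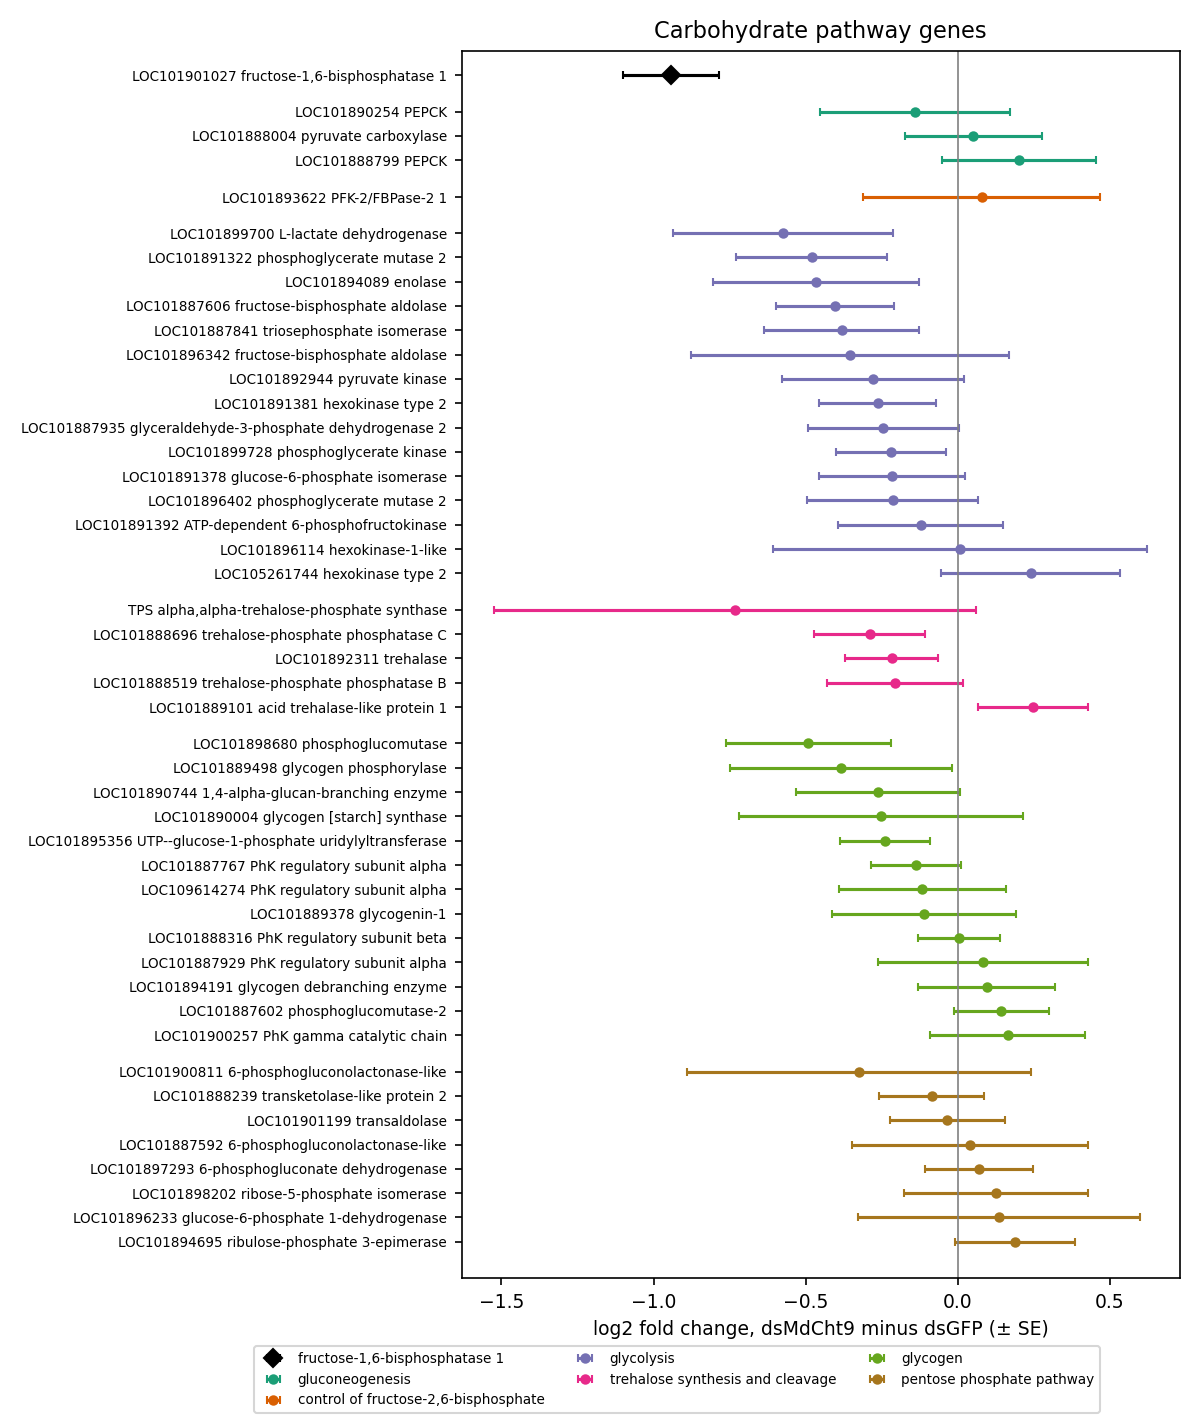
Log2 fold change (dsMdCht9 minus dsGFP) with its SE for fructose-1,6-bisphosphatase 1 and for the tested genes of 6 lists of carbohydrate metabolism, from the edgeR fit over all genes (PhK, phosphorylase b kinase). Fructose-1,6-bisphosphatase 1, at -0.94, lies left of the other genes drawn, of which the lowest is trehalose-phosphate synthase (TPS), at -0.73 with an SE of 0.79.

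Genes of trehalose metabolism, to which the hexose phosphates of gluconeogenesis lead, were lower in 4 of 5 cases, with 0 called by edgeR and a median log2 fold change of -0.22. The synthase (TPS), which makes trehalose 6-phosphate, was measured at only 5.63, 2.42 and 16.7 CPM in dsMdCht9 and 9.95, 5.86 and 25.2 CPM in dsGFP, and its log2 fold change was -0.73 ± 0.79 (SE). Trehalose-phosphate phosphatase C (LOC101888696), which removes the phosphate, stood at 1456, 1726 and 1335 CPM in dsMdCht9 and at 2037, 1822 and 1660 CPM in dsGFP, with -0.29 ± 0.18 (SE). Only dsMdCht9 replicate 2 reached into the control range there.

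The second phosphatase, trehalose-phosphate phosphatase B (LOC101888519), had a log2 fold change of -0.21 ± 0.23 (SE). Trehalase (LOC101892311), which cleaves trehalose to glucose, stood at 89.5, 104 and 99.2 CPM in dsMdCht9 and at 127, 110 and 103 CPM in dsGFP, with -0.22 ± 0.15 (SE) and an overlap between dsMdCht9 replicate 2 and dsGFP replicate 3. A gene described as acid trehalase-like protein 1 (LOC101889101), whose UniProt match is a glucosidase of another substrate, was the 1 higher gene, at 0.25 ± 0.18 (SE). With 1 library left out the median of the 5 lay between -0.30 (without dsMdCht9 replicate 2) and -0.13 (without dsGFP replicate 1), and it was -0.096 under scaling by library size alone.

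The stores and side branches of hexose phosphate were nearer to the rest of the genome. Of 13 glycogen genes 8 were lower and 5 higher, with 0 called by edgeR and a median log2 fold change of -0.12 (7 lower and a median of -0.015 under scaling by library size alone). Glycogen phosphorylase (LOC101889498), which releases glucose 1-phosphate from glycogen and had the highest CPM of them, had -0.38 ± 0.37 (SE). The smallest p-values of the list belonged to phosphoglucomutase (LOC101898680), which links glucose 1-phosphate with glucose 6-phosphate, at -0.49 ± 0.27, and to UTP-glucose-1-phosphate uridylyltransferase (LOC101895356), which makes the UDP-glucose used for glycogen and trehalose, at -0.24 ± 0.15. Both had overlapping groups, and edgeR's adjusted p was 0.999 for each.

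The 8 pentose phosphate genes, which use glucose 6-phosphate to make NADPH and ribose, divided into 3 lower and 5 higher (1 and 7 under scaling by library size alone), with a median log2 fold change of 0.056. Transketolase-like protein 2 (LOC101888239), of the highest CPM, had -0.09 ± 0.17 (SE), ribulose-phosphate 3-epimerase (LOC101894695) had 0.19 ± 0.20, and a 6-phosphogluconolactonase-like gene of low level (LOC101900811) had -0.32 ± 0.56. edgeR called 0.

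Of all 110 other sugar genes tested, sorbitol dehydrogenase (LOC101887985) was the only one with a lower log2 fold change than fructose-1,6-bisphosphatase 1. Of all tested genes, 1.85% had a lower one. This enzyme turns sorbitol into fructose. It stood at 4.38, 9.27 and 6.64 CPM in dsMdCht9 replicates 1, 2 and 3 and at 10.3, 25.1 and 13.4 CPM in dsGFP replicates 1, 2 and 3. The groups did not overlap, and both samples numbered 2 were the highest of their group. Its log2 fold change was -1.27 ± 0.41 (SE), with edgeR's p at 0.0168 unadjusted and 0.999 adjusted over all genes. It was the 1 lower gene of the 110 at an unadjusted p under 0.05, a class that held 1.61% of all tested genes. It ranged from -1.56 (without dsMdCht9 replicate 2) to -0.81 (without dsGFP replicate 2). The other 4 genes of fructose and polyol enzymes lay between -0.26 and 0.20. They include an aldose reductase-like gene (LOC101894281, -0.26 ± 0.59), whose enzyme makes sorbitol from glucose, and mannose-6-phosphate isomerase (LOC101887315, 0.06 ± 0.47), of the highest mean CPM in the list, which shares fructose 6-phosphate as a substrate. Their list had a median of -0.057, and of 0.059 under scaling by library size alone.

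Among 12 genes that supply gluconeogenesis with precursors (glycerol, amino acids and malate), 9 were lower and 3 higher, with a median log2 fold change of -0.16 (7 and 5, and -0.051, under scaling by library size alone) and 0 called by edgeR. Without dsMdCht9 replicate 2 the median was -0.41. The gene of smallest p was a glycerol kinase (LOC101895094), which lets glycerol enter the pathway. It stood at 23.8, 34.1 and 32.0 CPM in dsMdCht9 and at 42.1, 36.3 and 41.2 CPM in dsGFP, without overlap, at -0.41 ± 0.18 (SE) and an unadjusted edgeR p of 0.0516 (adjusted, 0.999). Putative glycerol kinase 5 (LOC101897409) had -0.66 ± 0.34 with overlapping groups, and the gene of highest CPM, cytoplasmic malate dehydrogenase (LOC101889109), had -0.20 ± 0.31. A further glycerol kinase (LOC101900595) went the other way without overlap, at 12.7, 13.7 and 12.6 CPM in dsMdCht9 and 12.0, 10.5 and 8.16 CPM in dsGFP, so that genes of the same description lay on both sides.

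The lists for the transport and the digestion of sugars had medians of either sign, depending on the libraries. Of 23 sugar transport genes tested (of 29), 11 were lower and 12 higher, at a median log2 fold change of 0.042, which was -0.099 without dsMdCht9 replicate 2 and 0.17 under scaling by library size alone (9 lower and 14 higher). The gene of highest CPM, a facilitated glucose transporter of solute carrier family 2 (LOC101891544), had 0.04 ± 0.26 (SE), and those of smallest p, a trehalose transporter of the Tret1 type (LOC101892756) and the sugar transporter SWEET1 (LOC101901755), had 0.29 ± 0.15 and -0.29 ± 0.16. Of 10 tested genes for amylases and maltases (of 16), which digest starch and its products in the gut, 4 were lower and 6 higher, at a median of 0.16. Without dsMdCht9 replicate 2 it was -0.26, and without dsMdCht9 replicate 3 it was 0.34. The alpha-amylase of highest CPM (LOC101900389) had 0.29 ± 0.31, maltase A3-like (LOC101899666) had 1.04 ± 0.62 and maltase 2-like (LOC101898798) had -0.27 ± 0.24. edgeR called 0 in either list.

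Of the hormone and nutrient signals that act on sugar metabolism, 15 of 21 genes were tested, 6 lower and 9 higher (4 and 11 under scaling by library size alone), with a median log2 fold change of 0.014 and 0 called by edgeR. An insulin receptor gene (LOC101897102) was the 1 gene of the 110 that was higher at an unadjusted p under 0.05, a class that held 1.97% of all tested genes. It stood at 4.26, 8.18 and 6.93 CPM in dsMdCht9 and at 3.97, 4.09 and 3.79 CPM in dsGFP, without overlap. Its log2 fold change was 0.70 ± 0.28 (SE), with edgeR's p at 0.038 unadjusted and 0.999 adjusted. The other receptor genes of the list, insulin receptor LOC101891334 and insulin-like receptor LOC101894251, had -0.27 ± 0.31 and -0.08 ± 0.33. A gene described as forkhead box protein O-like (LOC101893950), a family of transcription factors that insulin signalling holds back, had 0.99 ± 0.54 at 0.857 to 3.32 CPM with overlapping groups. Both other genes of that description, LOC101893612 and LOC101889153, had -0.24 (SE 0.20 and 0.24). The gene of highest CPM, LOC101895660, had 0.13 ± 0.15. It is in the list only by its UniProt match, the eukaryotic translation initiation factor 4E-binding protein Mextli. Whether it acts on sugar metabolism was not checked. The adipokinetic hormone gene (LOC101900534) stood at 0.545 to 2.00 CPM in dsMdCht9 and 0.477 to 0.822 CPM in dsGFP.

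Over all 110, 3 genes were lower without overlap between groups and 2 were higher, where all tested genes had 3.38% lower and 4.83% higher (8.21% in either direction). The lower ones were sorbitol dehydrogenase, the glycerol kinase LOC101895094 and a gene with a malate dehydrogenase match (LOC101889715, -0.22 ± 0.19). Of the 110, 62 were lower and 48 higher, with a median log2 fold change of -0.072.

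Markers of the tissues that make up the larva were mostly lower in dsMdCht9 as well. Their medians were smaller in size than the log2 fold change of fructose-1,6-bisphosphatase 1. Lower values than it were found for 3 fat body and 10 midgut markers, and for 1.85% of all tested genes. These 3 fat body markers had overlapping groups and SEs of 0.73 to 1.91. The midgut ones include genes with and without overlap. Of 32 genes described as fat body products (hexamerins, larval serum proteins, arylphorins, apolipophorins, vitellogenins), 21 were tested and 17 were lower, with a median log2 fold change of -0.23 and 0 called by edgeR. The median was 0.0066 without dsMdCht9 replicate 1 and -0.40 without dsMdCht9 replicate 3. Their summed level was 90319, 155308 and 135523 CPM in dsMdCht9 replicates 1, 2 and 3 and 159728, 135084 and 129827 CPM in dsGFP replicates 1, 2 and 3, so that dsMdCht9 replicate 1 alone stood below the controls. Averaged over the list on the log2 scale, the same was seen, at -0.996, -0.11 and 0.15 in dsMdCht9 and -0.07, -0.29 and 0.35 in dsGFP. The 11 markers under 1 CPM included 10 of the 13 vitellogenins, the yolk proteins of adult females. Fructose-1,6-bisphosphatase 1 stood at 66.4, 73.4 and 71.7 CPM in dsMdCht9 replicates 1, 2 and 3, and the part of the fat body in its level was not tested.

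Of 17 muscle markers (muscle myosin heavy chain, troponins, tropomyosins, paramyosin, muscle LIM protein), 14 of 15 tested were lower at a median log2 fold change of -0.28. They summed to 23127, 39534 and 23565 CPM in dsMdCht9 and to 39308, 37621 and 27547 CPM in dsGFP. The midgut list took every gene whose description holds the word trypsin, 97 in all. Most are trypsins, but chymotrypsins, brachyurins and a few genes that are no gut enzymes by name (a neurotrypsin, a venom protease, an antichymotrypsin and an antitrypsin) are among them. Of 77 tested, 56 were lower, at a median log2 fold change of -0.30, and edgeR called 0.

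At an unadjusted edgeR p under 0.05, 10 of the 77 tested midgut genes were lower and 0 higher, against 1.61% and 1.97% of all tested genes. Without overlap between groups, 9 of the 77 were lower and 1 higher, against 3.38% and 4.83%. The 9 include the antichymotrypsin (LOC101894531, -0.17), which is no gut enzyme by name. The lowest was a trypsin eta-like gene (LOC101895007), at -2.06 ± 0.34 (SE) and an adjusted edgeR p of 0.675. Averaged over the list on the log2 scale, the midgut genes stood at -0.38, -0.12 and -0.63 in dsMdCht9 replicates 1, 2 and 3 and at 0.07, -0.01 and -0.06 in dsGFP replicates 1, 2 and 3. Every dsMdCht9 library thus lay below every dsGFP library, as for fructose-1,6-bisphosphatase 1. Their sums did not keep the groups apart, at 6387, 10924 and 7831 CPM in dsMdCht9 and 9343, 9685 and 9758 CPM in dsGFP. Under scaling by library size alone 13 fat body, 13 muscle and 50 midgut genes were lower. The part of tissue make-up in the level of fructose-1,6-bisphosphatase 1 was not tested.

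The tested genes next to fructose-1,6-bisphosphatase 1 had log2 fold changes between -0.17 and 0.27. Its scaffold holds 9 genes in the deposited table, 6 before it and 2 after it. The nearest, a tRNA-dihydrouridine synthase-like gene (LOC101900854), lies on the opposite strand at 95131 to 97393, so that the 3′ ends of both genes face each other over a gap of 125 bases. It stood at 9.83, 9.35 and 6.05 CPM in dsMdCht9 and at 9.44, 8.25 and 7.40 CPM in dsGFP, and the log2 fold change was 0.01 ± 0.24 (SE). Whether strand was used in the counting is not given in the sources used here, and reads that run past the end of either gene cannot be told apart without it. The neighbour was counted with 82 to 157 reads per library and fructose-1,6-bisphosphatase 1 with 942 to 2149.

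The further neighbours overlapped between groups as well, as all but 8.21% of the tested genes did. GTP-binding protein 10 homolog (LOC101900677), 5611 bases away, had a log2 fold change of -0.07 ± 0.31 (SE). A gene with a UniProt match to the zinc finger protein Gfi-1 (LOC101901640), 9204 bases away, had 0.07 ± 0.18, and nuclear transcription factor Y subunit B-1 (LOC101901476), 68609 bases away, had 0.27 ± 0.25. On the side of the 5′ end, brain-specific homeobox protein (LOC101901805), 12008 bases away, had at most 0.316 CPM in any library and was not tested, and the GTPase-activating protein CdGAPr (LOC101901317), 81491 bases away, had -0.17 ± 0.26. Putative nuclease HARBI1 (LOC105261909) had at most 4 reads per library and was not tested.

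**Figure D5:**
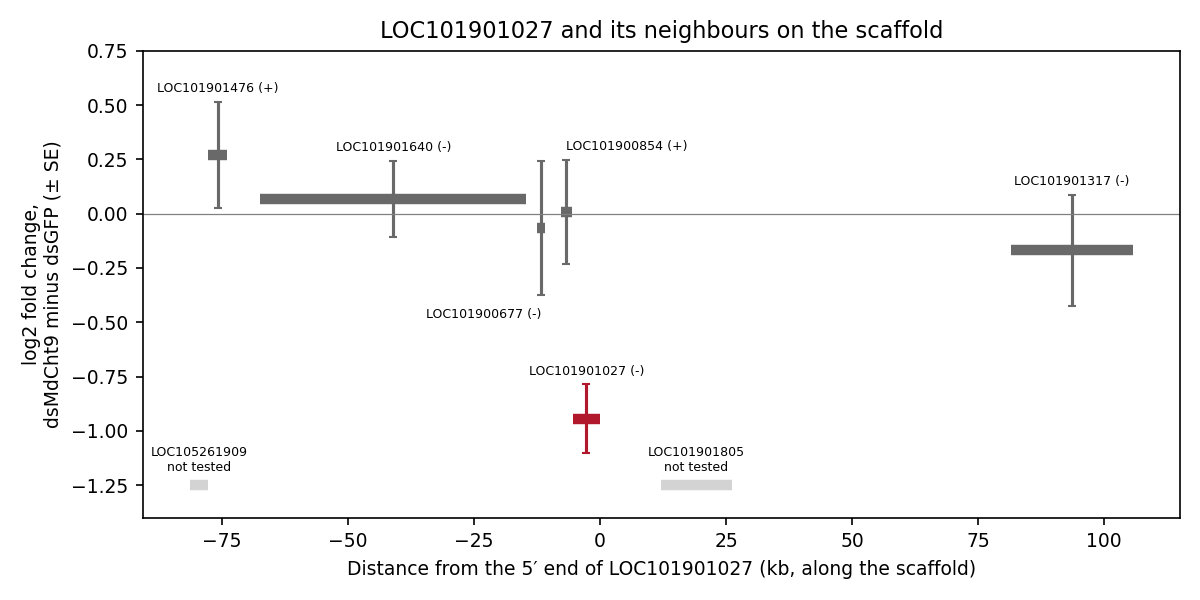
Log2 fold change (dsMdCht9 minus dsGFP) with its SE for fructose-1,6-bisphosphatase 1 (red) and its neighbours on the scaffold, drawn to scale by the distance of each gene body from the 5′ end of LOC101901027 in kb, with the strand in brackets; pale bars mark genes that were not tested and have no value on the vertical axis. The tested neighbours lie between -0.17 and 0.27, and LOC101901027 lies at -0.94.

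The genes whose levels ran most like fructose-1,6-bisphosphatase 1 over the 6 libraries came from outside sugar metabolism. Likeness was the Pearson r of log2 CPM, which is given as a description, since the points share their libraries and their division into groups. Of 5355 genes with an informative description and at least 10 CPM, 23 (0.43%) had an r above 0.9. Of the 87 sugar genes of at least 10 CPM, some of them named by UniProt match only, 0 had. At a share of 0.43%, 0 among so few sugar genes is not read as a result. The median r was 0.20 for those sugar genes and 0.030 for all 5355.

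The highest r, 0.985, belonged to small integral membrane protein 14 (LOC101891088). It was followed by GPCPD1 (LOC101888991), an enzyme that cleaves glycerophosphocholine to glycerol 3-phosphate and choline, at 0.976. GPCPD1 stood at 24.8, 29.2 and 26.7 CPM in dsMdCht9 replicates 1, 2 and 3 and at 48.6, 34.9 and 44.5 CPM in dsGFP replicates 1, 2 and 3, and its log2 fold change was -0.67 ± 0.17 (SE). Its dsGFP replicates had the same order from high to low as those of fructose-1,6-bisphosphatase 1. With the group means taken out its r was 0.970. Such deviations enter the r by which these genes were picked, so that value too is only a description.

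Next came the tubulin-modifying enzyme TTLL5 (LOC101899208) at 0.971, a myb-like protein AA (LOC101890768) at 0.970 and angiotensin-converting enzyme (LOC101891754), a peptidase, at 0.969. Angiotensin-converting enzyme stood at 275, 339 and 316 CPM in dsMdCht9 and at 500, 410 and 511 CPM in dsGFP, and the log2 fold change was -0.61 ± 0.18 (SE). With the group means taken out, r was 0.73 for small integral membrane protein 14, 0.958 for TTLL5, 0.426 for the myb-like gene and 0.835 for angiotensin-converting enzyme. All 5 genes were lower without overlap, as a high r over these groups nearly requires.

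Among sugar genes the most alike were the glycerol kinase LOC101895094 (r = 0.857, or 0.68 with the group means taken out), trehalase (LOC101892311; 0.801 and 0.684) and SWEET1 (LOC101901755; 0.790 and 0.454). SWEET1 stood at 70.0, 80.0 and 64.2 CPM in dsMdCht9 and at 98.7, 85.9 and 78.2 CPM in dsGFP. Like fructose-1,6-bisphosphatase 1, all 3 had dsGFP replicate 1 as their highest library and were lower on average in dsMdCht9, by -0.41, -0.22 and -0.29 on the log2 scale.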

How the data were processed

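RNA was measured by sequencing in 6 libraries, grouped by their titles into dsMdCht9 (3) and dsGFP (3). One phrase of the series description speaks of retinal RNA, whereas the sample labels give whole bodies, and the labels were followed. The gene and the lists beside it were chosen with earlier results of these data known, and some list terms were narrowed after the descriptions they matched had been read.

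The authors deposited raw read counts per gene, per the file headers. Their deposited table also held p-values, a mean signal and the fold change per gene, both as a linear ratio and on the log2 scale, and only the fold changes of fructose-1,6-bisphosphatase 1 are quoted from it. The submitters' processing notes name HTSeq 0.6.0, HISAT2 2.1.0 and StringTie 1.3.2d without roles. Genome build, strand setting and the handling of multiply matching reads were not given in the sources used here, so genes with near-identical copies are uncertain one by one. Of 131 sugar genes 124 matched by symbol in the RefSeq gene table (assembly Musca_domestica.polishedcontigs.V.1.1), which was used for names only.

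Counts were analysed in R 4.3.3 with edgeR 4.0.16 (filterByExpr, TMM, robust quasi-likelihood F-test, two-sided, group as the only term). The Benjamini-Hochberg adjustment ran over all 10644 genes tested, at a threshold of 0.05, and 0 rows of the table named no gene. SE was taken from the fold change and its F value. No pair of replicates was as close as sampling noise alone would make it (chi-square per degree of freedom, 33.7 to 143.7). The fit was tested on simulated counts. Lists were described by counts and medians without a set test.

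Same-numbered samples of both groups deviated together from their group means, with correlations over genes of 0.24, 0.39 and 0.65 for numbers 1, 2 and 3. By that measure the numbers pair the samples only in part. The deviations of dsGFP replicate 1 correlated more with those of dsMdCht9 replicate 2 (0.32) than with those of dsMdCht9 replicate 1 (0.24). Any pairing is read from the data alone, since the labels name no shared pool or day. Alternatives were a replicate block, DESeq2 1.42.0, limma-voom (limma 3.58.1), 2 other scalings, no filter, a filter of at least 5 CPM in 3 samples, each library left out, and both samples numbered 3 left out.

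Named were the gene itself, all genes of the gluconeogenesis, fructose 2,6-bisphosphate and trehalose lists, the gene of highest CPM of each glycolytic step, and of each other list the gene of highest CPM and the 2 of smallest p. The nearest 5 genes on each side on the scaffold were named too, with the 5 genes and the 3 sugar genes of highest r among those of at least 10 CPM. Genes outside that rule (the aldolase LOC101887606, the hexokinase LOC101891381, the further glycerol kinase, the malate dehydrogenase match, the other receptor and forkhead genes, adipokinetic hormone and the trypsin LOC101895007) were named after their values were seen.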

Additional observations from a re-analysis of the deposited data

How the results depend on the processing

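With the replicate number as a block, the log2 fold change of fructose-1,6-bisphosphatase 1 was -0.94. The block left the count of called genes at 0, raised the count at an unadjusted p under 0.05 from 381 to 888, and changed no other call. DESeq2 called 13 genes where edgeR called 0. With 1 library left out, the median log2 fold change of the other sugar metabolism lists (the sugar lists apart from gluconeogenesis, glycolysis, trehalose, glycogen and pentose phosphate) ran from -0.16 (without dsMdCht9 replicate 2) to 0.043, around -0.0092. For 120 genes (the other sugar genes tested, the tested neighbours and the genes most alike, not all of them named above), 1665 values were recomputed. Of these, 16 moved by more than the spread between replicates. The sign differed from that of the main fit in 168 of the 1665 values, in 65 genes. None of those genes was called by edgeR, which called 0 of all genes. The log2 fold change of fructose-1,6-bisphosphatase 1 lay between -1.04 and -0.82 under every alternative run. With 3 libraries a group, the design and not the reads of this gene limits the precision of its fold change. CPM were not divided by transcript length, so the gene of highest CPM in a list need not have the most transcripts.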
